A study of Mus musculus with 12 samples.

Results

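A set of 10 genes was followed, namely the cytokines Il1b, Il1rn and Tnf, the chemokines Cxcl2, Ccl3, Ccl4, Ccl6 and Ccl9, and the inflammasome genes Nlrp3 and Casp1. They were chosen by name, as a named set of inflammatory mediators, with earlier results of these data known. All 10 were present among the 31272 gene names (31340 rows) of the expression tables. RNA was sequenced from hematopoietic stem cells (HSCs) sorted from mouse bone marrow (BM), in 12 libraries. The study addressed how the BM responds to ionizing radiation (IR), and the comparison of IR with unirradiated control asks which transcripts of the sorted cells differ after that injury.

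All libraries came from wild-type (WT) mice, and the 4 groups of 3 libraries carry the treatment labels Ctrl, IR, Ab_IR and L_IR. The mice were on a C57BL/6 background. Ctrl is the control, IR is ionizing radiation, which was given as gamma rays, and Ab_IR and L_IR are a pair of further groups whose labels join another term to IR. What Ab and L stand for is explained in neither the labels nor the methods, so the names are kept as they are, and no age or radiation dose is stated in the labels. The study's methods describe irradiation as single and total body, from a cobalt source, and the dose there was 5 Gy. Every library, Ctrl included, carries the same wording of collection 3 days post IR. The sort gate in the methods was Lineage- Sca-1+ c-Kit+ Flt3- CD34-. Nothing says whether the replicates came from separate animals, so the p-values below measure only the spread between these libraries, which may be technical.

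As background, chemokines are small secreted proteins that draw leukocytes through G protein-coupled receptors, and in the BM they also act on the traffic and quiescence of stem and progenitor cells. Interleukin-1 beta and tumor necrosis factor are cytokines that activate NF-κB, and NF-κB in turn induces the transcription of many chemokines, of Nlrp3 and of its own inhibitors. The Nlrp3 inflammasome is a protein complex that activates caspase-1, which then cuts the interleukin-1 beta precursor into its active form, so the mRNA levels given here precede several steps of control.

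Values were FPKM, that is, fragments per kilobase of transcript scaled to library size, which allow levels of different genes to be compared per length. No counts come with them, and depth is unknown. Sums of FPKM ran from 344338 to 405123, and between 11467 and 12167 genes were at or above 1 FPKM. Zeros made up 44.1% of rows in Ctrl replicate 1, against 24.7% to 27.3% in the other libraries. Nppa, an atrial hormone gene, lay between 51.2 and 63.9 FPKM in every IR library and in Ctrl replicates 2 and 3, and between 0 and 0.26 FPKM elsewhere, so this split coincides with IR against Ab_IR and L_IR except through Ctrl replicate 1. A list of 8 heart genes that holds Nppa split the same way. It summed to 115.3 to 147.3 FPKM in IR, 120.6 and 141.3 in Ctrl replicates 2 and 3, and 0.26 to 0.59 elsewhere.

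The cell type label was checked against marker genes. Of 10 HSC-enriched genes, 5 (Slamf1, Mecom, Hoxb5, Fgd5 and Ctnnal1) were under 1 FPKM in all 12 libraries, and Cd34, gated as negative, was listed at 19.0 to 20.7 FPKM in Ctrl. Kit, gated as positive, was listed at 21.3 to 25.4 FPKM in Ctrl and at 6.7 to 7.0 in IR. Flt3, gated as negative, was listed at 9.13 to 12.07 FPKM in Ctrl and 0.96 to 1.22 in IR, and Ly6a, gated as positive, at 25.9 to 41.1 in Ctrl and 53.7 to 61.5 in IR. Of these 4 sort markers, Kit, Flt3 and Cd34 were called lower in IR against Ctrl and Ly6a was not called. In that comparison 7.6% of all genes were called and 4.57% were called lower. Markers of mature myeloid cells were abundant, the 16 neutrophil genes summing to between 7637 and 15160 FPKM per library and the 9 eosinophil genes to between 398.5 and 6927. Immunoglobulin genes held 9% to 11.1% of the summed FPKM in Ctrl and 17.2% to 18% in IR. Their share was 13.5% to 14.3% in Ab_IR and 21.9% to 22.6% in L_IR. The libraries are therefore called here by their sort (cells sorted as HSCs) and group, and in such bulk RNA fewer cells of a type and less RNA per cell cannot be told apart.

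Of the 10 genes, 5 lie on chromosome 11 and 4 of those sit in the CC chemokine cluster. On GRCm38 with GENCODE M21 gene models, Ccl9 (chr11:83572919-83578636, minus strand) is followed after 9245 bases by Ccl6 (chr11:83587882-83593087, minus strand), and after a further 54756 bases by Ccl3 (chr11:83647844-83649355, minus strand). Ccl4 (chr11:83662584-83664683, plus strand) lies 13228 bases beyond Ccl3 on the opposite strand. Nlrp3 (chr11:59541568-59566956, plus strand) is on the same chromosome outside the cluster. The others are Cxcl2 (chr5:90903871-90905938, plus strand), Il1b (chr2:129364570-129371139, minus strand), Il1rn (chr2:24336853-24351494, plus strand), Tnf (chr17:35199381-35202007, minus strand) and Casp1 (chr9:5298517-5307265, plus strand).

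The promoter windows of 5 genes are shown: the most abundant of the 10 (Ccl3), those with a match to the binding consensus of NF-κB (Cxcl2, Ccl9 and Nlrp3), and the gene that moved against the rest (Tnf). Each holds the 250 bases before the transcription start on the gene's strand, from RefSeq on GRCm38.p6, and capitals mark matches to the NF-κB binding consensus (κB) and to TATAAA. The windows lie at chr11:83649379-83649628 (minus strand) for Ccl3, chr5:90903649-90903898 (plus strand) for Cxcl2, chr11:83578637-83578886 (minus strand) for Ccl9, chr11:59541319-59541568 (plus strand) for the first start of Nlrp3, and chr17:35202008-35202257 (minus strand) for Tnf.
Ccl3: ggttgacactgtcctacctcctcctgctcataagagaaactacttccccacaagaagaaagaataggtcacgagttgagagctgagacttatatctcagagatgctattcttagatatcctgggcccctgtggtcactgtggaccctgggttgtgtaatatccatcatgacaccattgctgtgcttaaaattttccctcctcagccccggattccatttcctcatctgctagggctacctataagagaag
Cxcl2: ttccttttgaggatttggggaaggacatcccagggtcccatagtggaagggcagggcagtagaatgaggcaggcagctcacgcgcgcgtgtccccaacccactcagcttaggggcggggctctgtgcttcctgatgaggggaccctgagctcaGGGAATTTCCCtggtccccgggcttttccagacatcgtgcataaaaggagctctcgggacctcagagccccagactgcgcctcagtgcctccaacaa
Ccl9: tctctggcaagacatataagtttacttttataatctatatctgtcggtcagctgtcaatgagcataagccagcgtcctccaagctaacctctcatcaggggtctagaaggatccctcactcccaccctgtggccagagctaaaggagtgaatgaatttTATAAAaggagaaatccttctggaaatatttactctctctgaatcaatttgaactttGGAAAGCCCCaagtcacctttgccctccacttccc
Nlrp3: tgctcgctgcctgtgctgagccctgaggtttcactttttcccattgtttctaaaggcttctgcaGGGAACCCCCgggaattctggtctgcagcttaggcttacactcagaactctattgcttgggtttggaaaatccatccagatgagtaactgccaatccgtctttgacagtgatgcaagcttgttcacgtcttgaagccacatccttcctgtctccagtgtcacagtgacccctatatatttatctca
Tnf: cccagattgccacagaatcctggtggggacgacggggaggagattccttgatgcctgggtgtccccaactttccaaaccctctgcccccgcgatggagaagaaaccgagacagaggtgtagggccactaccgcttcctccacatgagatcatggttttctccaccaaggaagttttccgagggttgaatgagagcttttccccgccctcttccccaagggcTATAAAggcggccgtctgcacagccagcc

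Overlapping κB matches on both strands span 97 to 87 bases upstream of the Cxcl2 start, a match spans 35 to 26 bases upstream of Ccl9, and a match spans 186 to 177 bases upstream of the first Nlrp3 start. The promoter windows used held none for Ccl4. Among the 12 windows of the other genes, 3 held a κB match, against 7.25% of 32851 windows of that length genome-wide on either strand. TATAAA on the gene's strand stood 29 to 24 bases upstream of Tnf, 31 to 26 upstream of Il1b and 92 to 87 upstream of Ccl9, and 7.59% of all windows held it. The AP-1 letters TGANTCA were found on either strand in the windows of Il1rn (141 to 135 bases upstream) and Ccl9 (53 to 47), against 6.75% of all windows. These matches are descriptions of the letters only, and no factor binding was measured.

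The main pattern was shared by the 5 chemokines and Nlrp3, which were lowest in the IR libraries and higher in Ctrl, Ab_IR and L_IR. Tnf ran the other way and was highest in IR. Il1rn, the gene of the interleukin-1 receptor antagonist, was low in Ctrl and IR and high in Ab_IR and L_IR, and Casp1 showed no difference that passed the test in any comparison. Differences were tested with limma on log2(FPKM + 1), a scale that understates the change of low genes, and adjusted by Benjamini-Hochberg over all genes tested. A gene is said to have risen or fallen at an adjusted p under 0.05, and is called at an absolute log2 fold change above 1 as well.

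In IR against Ctrl, 4 of the 10 genes were called, all lower (Ccl3, Ccl4, Ccl6 and Nlrp3), where 7.6% of the 12072 genes tested were called and 4.57% were called lower. By adjusted p alone, 6 fell and Tnf rose, where 43.1% of all genes passed (25.5% lower and 17.5% higher). The groups did not overlap for 7 of the 10, against 58.1% of all genes. The median log2 fold change of the 10 was -0.91, beside -0.046 over all genes tested.

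In Ab_IR against IR, 7 of the 10 were called, all higher, where 7.57% of 12067 genes were called and 5.11% were called higher. By adjusted p alone 8 rose and Tnf fell, where 68.7% of all genes passed (39.4% higher and 29.4% lower), and 9 did not overlap, against 73% of all genes. The median of the 10 was 1.33, beside 0.061 over all genes. In L_IR against IR, 5 of the 10 were called, all higher, where 6.22% of 12163 genes were called and 4.09% were called higher. By adjusted p alone 8 rose and Tnf fell, where 66.8% of all genes passed (40.8% higher and 26% lower), 9 did not overlap, against 71.2%, and the median was 1.01 beside 0.073. These comparisons share the IR libraries, so their results are not independent of each other.

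**Figure D1:**
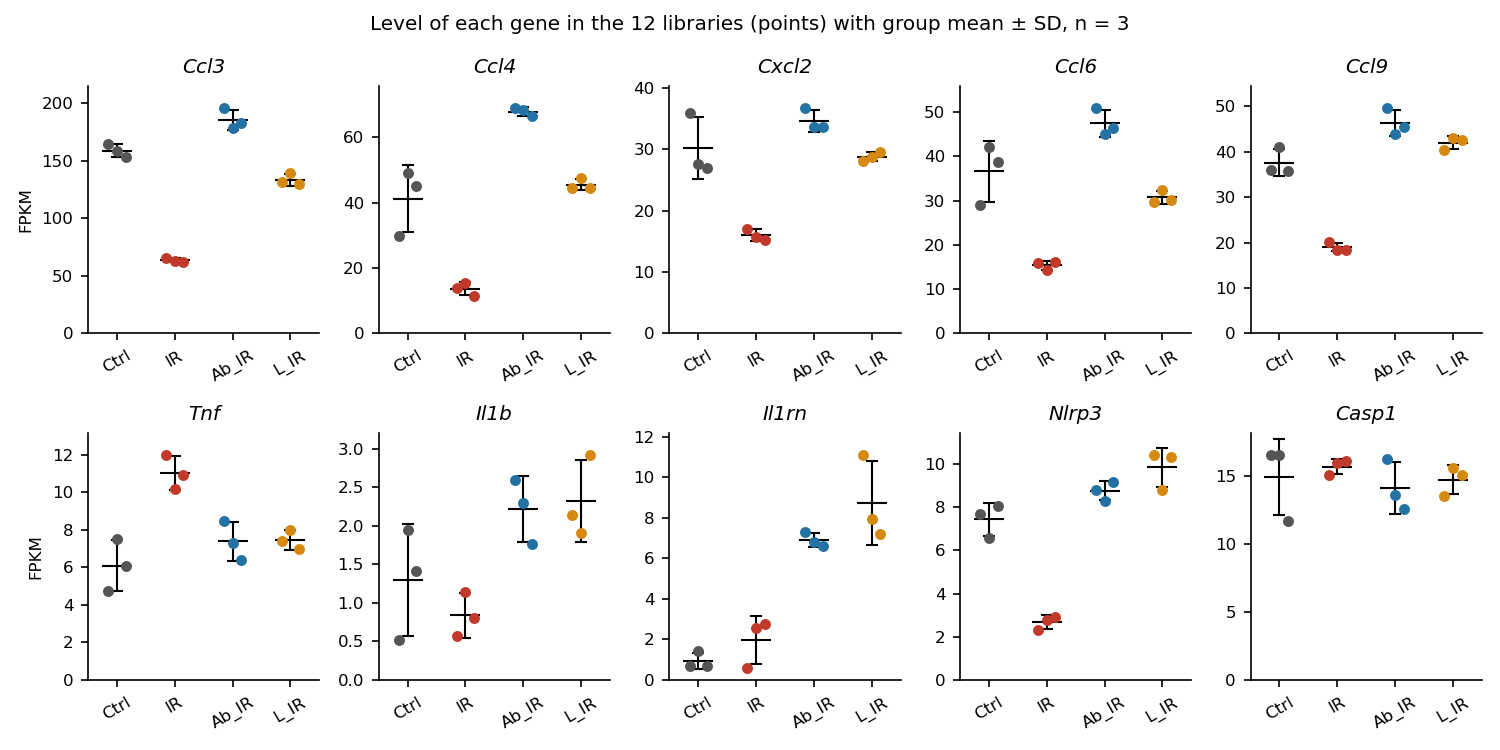
FPKM (vertical axes from 0, a scale for each gene) of the 10 genes in the 3 libraries each of Ctrl, IR, Ab_IR and L_IR, points being libraries in replicate order and black bars the group mean ± SD (n = 3). The IR points lie below all others for the 5 chemokines and Nlrp3 and above all others for Tnf, whereas Casp1 points of the 4 groups overlap.

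Ccl3 encodes the chemokine MIP-1 alpha, a ligand of Ccr1 known as an inhibitor of stem and progenitor cell proliferation. It was the most abundant of the 10, at 164, 159 and 153 FPKM in Ctrl replicates 1 to 3, 65.6, 63.0 and 62.2 in IR, 195, 179 and 183 in Ab_IR, and 131, 139 and 129.9 in L_IR. All 4 groups were apart from each other, in the order Ab_IR, Ctrl, L_IR and IR. The mean was 159 ± 5.37 in Ctrl and 63.6 ± 1.77 in IR (SD, n = 3), and Ccl3 fell by 1.31 on the log2 scale in IR against Ctrl (SE 0.0593, adjusted p = 3.17e-05, limma). It rose in Ab_IR against IR by 1.53 (SE 0.0436, adjusted p = 2.65e-07) and in L_IR against IR by 1.06 (SE 0.0346, adjusted p = 7.09e-07, limma), the latter just past the fold threshold.

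Ccl4, which encodes MIP-1 beta, the neighbor of Ccl3, was listed at 29.7, 48.9 and 45.1 FPKM in Ctrl, 14.03, 15.4 and 11.4 in IR, 68.8, 68.3 and 66.5 in Ab_IR, and 44.5, 47.6 and 44.5 in L_IR. Every IR library was below every other library, every Ab_IR library was above, and Ctrl and L_IR overlapped, with Ctrl replicate 1 the lowest outside IR. Ccl4 fell by 1.51 in IR against Ctrl (SE 0.203, adjusted p = 0.0018, limma). It showed the largest rise of the 10 in Ab_IR against IR, 2.25 on the log2 scale (SE 0.094, adjusted p = 1.36e-06, limma), from a mean of 13.6 ± 2.02 to 67.9 ± 1.24 FPKM (SD, n = 3). In L_IR against IR it rose by 1.68 (SE 0.0963, adjusted p = 8.25e-06, limma).

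Cxcl2 encodes MIP-2, a ligand of the neutrophil receptor Cxcr2, and its window above carries the overlapping κB letters. Its levels were 35.95, 27.6 and 26.9 FPKM in Ctrl, 17.0, 15.7 and 15.2 in IR, 36.6, 33.7 and 33.5 in Ab_IR, and 28.15, 28.65 and 29.5 in L_IR. IR was again below the other groups, which overlapped except that Ab_IR was above L_IR. The fall in IR against Ctrl was 0.87 on the log2 scale (95% interval of the change -1.16 to -0.58, adjusted p = 0.00207, limma), short of the fold threshold. Cxcl2 was called in Ab_IR against IR at 1.07 (SE 0.0552, adjusted p = 3.7e-06) and rose by 0.81 in L_IR against IR (SE 0.0447, adjusted p = 6.88e-06, limma). The Ab_IR value was under the fold threshold, at 0.92, once the values were rescaled without immunoglobulin genes.

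Ccl6, a rodent CC chemokine of myeloid cells and a ligand of Ccr1, was listed at 29.0, 42.1 and 38.8 FPKM in Ctrl, 15.8, 14.3 and 16.0 in IR, 50.8, 45.0 and 46.5 in Ab_IR, and 29.7, 32.3 and 30.2 in L_IR. The IR libraries were the lowest and the Ab_IR libraries the highest, without overlap, and L_IR lay within the Ctrl range. Ccl6 fell by 1.19 in IR against Ctrl (SE 0.141, adjusted p = 0.00113), rose by 1.57 in Ab_IR against IR (SE 0.0615, adjusted p = 1.04e-06) and rose by 0.96 in L_IR against IR (SE 0.0525, adjusted p = 6.81e-06, limma). An antisense transcript, E230016K23Rik, covers all of Ccl6, and whether the counting used the strand is not stated. It was listed at 0 to 0.35 FPKM.

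Ccl9 encodes MIP-1 gamma, another rodent ligand of Ccr1. Its levels were 35.9, 41.1 and 35.8 FPKM in Ctrl, 20.04, 18.4 and 18.5 in IR, 49.55, 44.0 and 45.6 in Ab_IR, and 40.3, 43.0 and 42.6 in L_IR. IR was below all other libraries, Ab_IR was above all others, and Ctrl and L_IR overlapped. The change was -0.95 in IR against Ctrl (SE 0.0777, adjusted p = 0.000257), 1.24 in Ab_IR against IR (SE 0.0557, adjusted p = 1.85e-06) and 1.11 in L_IR against IR (SE 0.0422, adjusted p = 1.33e-06, limma).

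The 5 chemokines together summed to between 294.73 and 318.62 FPKM in Ctrl, 123.36 and 132.53 in IR, 369.58 and 401.29 in Ab_IR, and 273.9 and 290.63 in L_IR, so the 4 groups were apart in this sum. Ccl3 made up 46.9% to 55.7% of it in every library. The ratios between neighbors were less even. The Ccl4 to Ccl3 ratio was 0.339 to 0.343 in L_IR and 0.352 to 0.383 in Ab_IR but 0.184 to 0.244 in IR, and Ctrl replicate 1 (0.181) lay outside the other Ctrl libraries (0.294 and 0.308). The Ccl6 to Ccl9 ratio was 1.02 to 1.03 in Ab_IR, 0.774 to 0.867 in IR and 0.709 to 0.751 in L_IR, while Ctrl ranged from 0.807 to 1.08.

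Among the cytokines, Tnf was the only gene of the 10 to rise in IR against Ctrl with all libraries in the fit. It was listed at 4.74, 7.48 and 6.06 FPKM in Ctrl, 11.98, 10.2 and 10.9 in IR, 8.48, 7.3 and 6.4 in Ab_IR, and 7.38, 8.0 and 6.96 in L_IR. Every IR library was above every other library, and the remaining groups overlapped. Tnf rose by 0.78 on the log2 scale in IR against Ctrl (SE 0.148, adjusted p = 0.00704), and fell in Ab_IR against IR by 0.52 (SE 0.0968, adjusted p = 0.00212) and in L_IR against IR by 0.51 (SE 0.0679, adjusted p = 0.000517, limma), and in none of these was it called. With a term for the libraries that list Nppa, the differences from IR were -0.09 in Ab_IR and -0.08 in L_IR. The size of that term rests on Ctrl replicate 1 against the other Ctrl libraries. A single library cannot decide whether the falls hold apart from the split. The rise in IR against Ctrl passed in that fit, at 0.63 (adjusted p = 0.000575, limma), a contrast that there leaves out Ctrl replicate 1. In the same fit Ab_IR and L_IR are set against Ctrl replicate 1 alone, and their differences from Ctrl for Tnf were 0.54 and 0.56.

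Il1b, the gene of interleukin-1 beta, was low throughout. Its levels were 0.52, 1.95 and 1.42 FPKM in Ctrl, 0.57, 1.14 and 0.8 in IR, 2.6, 2.3 and 1.76 in Ab_IR, and 2.14, 1.91 and 2.92 in L_IR. Ctrl spanned the IR range, and Ab_IR and L_IR overlapped each other and were above IR. The change in IR against Ctrl did not pass, at -0.28 (95% interval -0.91 to 0.34, adjusted p = 0.422), and without Ctrl replicate 1 it did, at -0.55 (adjusted p = 0.022, limma). Il1b rose by 0.81 in Ab_IR against IR (SE 0.138, adjusted p = 0.0014) and by 0.86 in L_IR against IR (SE 0.148, adjusted p = 0.00186, limma), under the fold threshold, and past it at 1.34 and 1.39 with a pseudocount of 0.1. An antisense gene, Il1bos, overlaps the 5′ part of Il1b on the other strand and was listed at 0 to 0.17 FPKM.

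Il1rn encodes the secreted antagonist that occupies the interleukin-1 receptor without signaling. It was listed at 0.68, 1.41 and 0.71 FPKM in Ctrl, 0.6, 2.57 and 2.76 in IR, 7.27, 6.8 and 6.58 in Ab_IR, and 11.1, 7.94 and 7.17 in L_IR. Ctrl and IR overlapped, since IR replicate 1 was at the Ctrl level, and all Ab_IR and L_IR libraries were above both. The difference between IR and Ctrl did not pass, at 0.54 (95% interval -0.3 to 1.39, adjusted p = 0.257), and without IR replicate 1 it did, at 0.94 (adjusted p = 0.0203, limma). Il1rn was called in Ab_IR against IR at 1.5 (SE 0.303, adjusted p = 0.00328) and in L_IR against IR at 1.79 (SE 0.334, adjusted p = 0.00275, limma).

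Against Ctrl, Il1rn was the only gene of the 10 called, at 2.05 in Ab_IR (SE 0.152, adjusted p = 0.00178) and 2.33 in L_IR (SE 0.2, adjusted p = 0.00107, limma). As ratios of mean FPKM these are 7.37-fold and 9.36-fold. In Ab_IR against Ctrl, 0.923% of 12134 genes (112) were called and 0.692% were called higher, and 60 to 65 genes were called when an Ab_IR library was left out. In L_IR against Ctrl, 2.65% of 12251 genes were called and 2.03% were called higher. The ratio of Il1rn to Il1b FPKM was 0.5 to 1.31 in Ctrl, 1.05 to 3.45 in IR, 2.8 to 3.74 in Ab_IR and 2.46 to 5.18 in L_IR, so that Ctrl lay below Ab_IR and L_IR, and IR overlapped all 3 other groups.

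Nlrp3 encodes the sensor of the inflammasome and Casp1 its protease. Nlrp3 levels were 7.67, 6.59 and 8.05 FPKM in Ctrl, 2.31, 2.78 and 2.93 in IR, 8.82, 8.3 and 9.17 in Ab_IR, and 10.4, 8.82 and 10.3 in L_IR. IR was below every other library, Ctrl was below Ab_IR and L_IR, and those 2 groups overlapped. Nlrp3 fell by 1.2 in IR against Ctrl (SE 0.104, adjusted p = 0.000316), rose by 1.41 in Ab_IR against IR (SE 0.074, adjusted p = 3.95e-06) and rose by 1.56 in L_IR against IR (SE 0.0855, adjusted p = 6.68e-06, limma).

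Casp1 was listed at 16.6, 16.6 and 11.7 FPKM in Ctrl, 15.1, 15.9 and 16.1 in IR, 16.2, 13.6 and 12.55 in Ab_IR, and 13.55, 15.6 and 15.1 in L_IR. All groups overlapped. Its change was 0.08 in IR against Ctrl (95% interval -0.24 to 0.41, adjusted p = 0.65), -0.15 in Ab_IR against IR (interval -0.35 to 0.05, adjusted p = 0.156) and -0.09 in L_IR against IR (interval -0.22 to 0.04, adjusted p = 0.197, limma). The intervals leave room for changes up to their bounds and do not show equal levels. Casp1 passed in Ab_IR against IR when Ab_IR replicate 1 was left out, at -0.25 (adjusted p = 0.00609, limma), and after median scaling, at -0.21 (adjusted p = 0.0442), or rescaling without immunoglobulin genes, at -0.29 (adjusted p = 0.0228). In L_IR against IR it passed after median scaling, at -0.16 (adjusted p = 0.0409, limma).

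**Figure D2:**
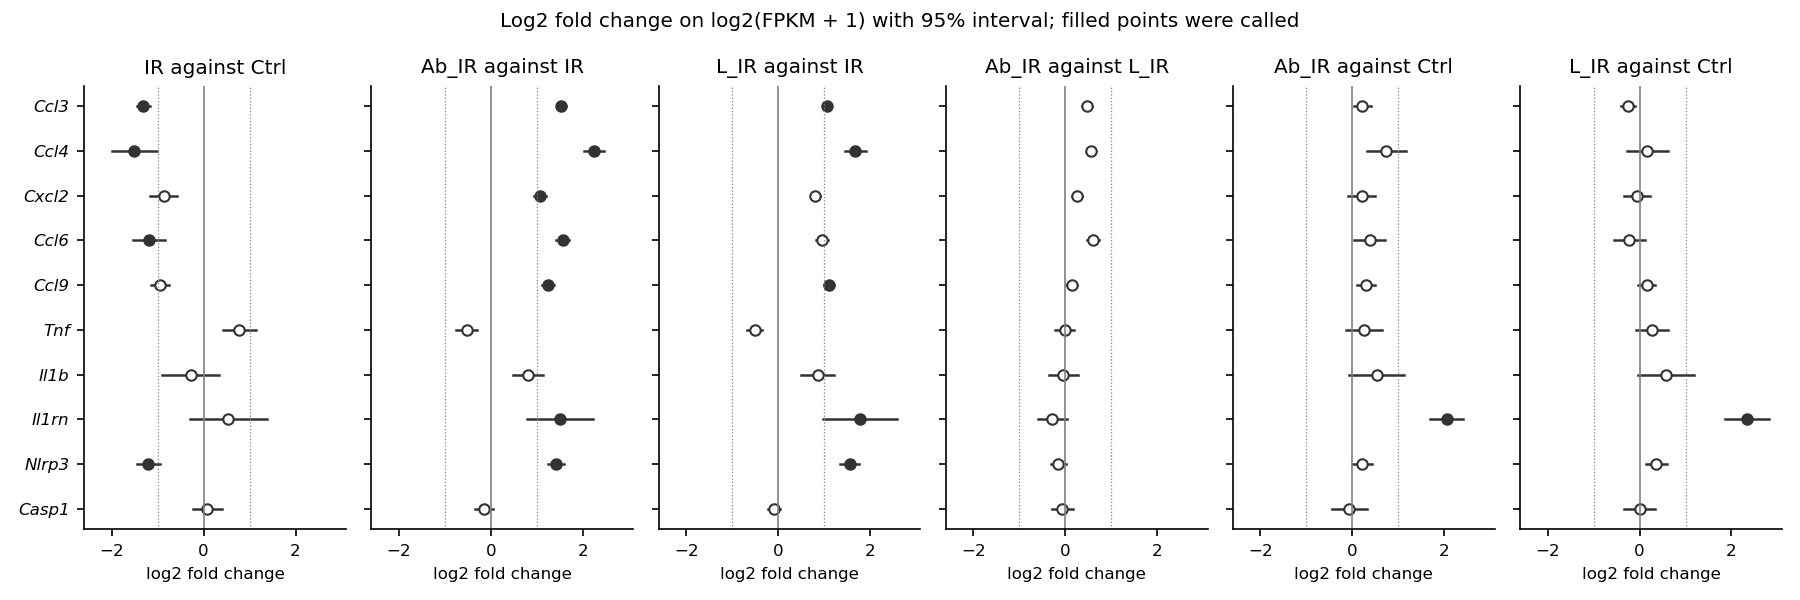
Log2 fold change on log2(FPKM + 1) (horizontal axes) of the 10 genes in 6 comparisons of 3 against 3 libraries, with lines for the 95% interval and dotted lines at a log2 fold change of 1 in either direction. Filled points were called: 4 in IR against Ctrl, 7 in Ab_IR against IR, 5 in L_IR against IR, none in Ab_IR against L_IR, and Il1rn in both comparisons of Ab_IR and L_IR with Ctrl.

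Ab_IR and L_IR were also set against each other. None of the 10 was called by limma, where 0.533% of 12194 genes were called. By adjusted p alone 4 chemokines were higher in Ab_IR, where 38% of all genes passed and 18.2% were higher, and 5 of the 10 had an unadjusted p under 0.05, as did 48.1% of all genes. Ccl6 was higher by 0.61 (SE 0.056, adjusted p = 0.000329), Ccl4 by 0.57 (SE 0.0401, adjusted p = 0.000111), Ccl3 by 0.47 (SE 0.0471, adjusted p = 0.00046) and Cxcl2 by 0.26 (SE 0.0456, adjusted p = 0.00472, limma). The Cxcl2 difference did not pass after rescaling without immunoglobulin genes (0.12, adjusted p = 0.134) or with all 12 libraries in the fit (adjusted p = 0.0825).

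For Ccl9 the difference was 0.14 (95% interval 0.01 to 0.26, adjusted p = 0.0758), with no overlap of the libraries, and it passed without Ab_IR replicate 2, at 0.18 (adjusted p = 0.0496, limma). In all, 5 of the 10 did not overlap, against 51.9% of all genes. Ccl6 and Ccl9, which lie side by side on chromosome 11 on the same strand, thus gave intervals of 0.48 to 0.74 and 0.01 to 0.26 in the same comparison. The differences of the other genes were -0.28 for Il1rn (interval -0.6 to 0.03), -0.15 for Nlrp3 (-0.31 to 0.01), -0.06 for Casp1 (-0.28 to 0.16), -0.04 for Il1b (-0.36 to 0.28) and -0.01 for Tnf (-0.23 to 0.2). After rescaling without immunoglobulin genes, Il1rn (-0.41, adjusted p = 0.0385) and Nlrp3 (-0.28, adjusted p = 0.0139, limma) were lower in Ab_IR than in L_IR, and Nlrp3 also passed without L_IR replicate 2, at -0.22 (adjusted p = 0.0306).

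Apart from Il1rn, none of the 10 passed the adjusted p in Ab_IR or L_IR against Ctrl when only the compared groups were fitted, where 2.1% (1.45% higher) and 8.84% (4.76% higher) of all genes passed. Separation from all Ctrl libraries was seen for 6 of the 10 in Ab_IR, against 33.5% of all genes, and for 3 in L_IR, against 36.1%. At an unadjusted p under 0.05 there were 5 of the 10 genes in Ab_IR, against 20.9% of all genes, and 3 in L_IR, against 24.7%. In Ab_IR, beside Il1rn, these were 0.74 for Ccl4 (95% interval 0.31 to 1.17, adjusted p = 0.114), 0.22 for Ccl3 (0.04 to 0.4, adjusted p = 0.181), 0.38 for Ccl6 (0.04 to 0.72, adjusted p = 0.207) and 0.3 for Ccl9 (0.09 to 0.5, adjusted p = 0.156, limma). In L_IR, beside Il1rn, they were -0.25 for Ccl3 (-0.41 to -0.09, adjusted p = 0.0673) and 0.36 for Nlrp3 (0.13 to 0.6, adjusted p = 0.0766, limma). With all 12 libraries in the fit, all of these passed: Ccl3 (adjusted p = 0.0159), Ccl4 (0.0123), Ccl6 (0.042) and Ccl9 (0.015) in Ab_IR, and Ccl3 (0.00595) and Nlrp3 (0.0158, limma) in L_IR. The 12-library fit shares a single variance per gene over all groups. The main fits took groups in pairs because the spread within Ctrl was wider than in the other groups. Ccl3 in L_IR also passed after quantile normalization, at -0.52 (adjusted p = 0.016, limma).

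Leaving out Ctrl replicate 1 also changed what passed. Without it, Ccl4 (0.52, adjusted p = 0.00409) and Cxcl2 (0.33, adjusted p = 0.0336) passed in Ab_IR against Ctrl, and Ccl6 (-0.38, adjusted p = 0.00809), Ccl3 (-0.23, adjusted p = 0.0236) and Nlrp3 (0.39, adjusted p = 0.0451, limma) passed in L_IR against Ctrl. IR against Ctrl can be taken among libraries that list Nppa by leaving out Ctrl replicate 1. The number of the 10 genes called was then 4, as with all libraries. Over all 12072 genes tested, 919 were called, against 918 with all libraries. For Ab_IR and L_IR against IR, the split by Nppa and the groups differ only through Ctrl replicate 1. With the split as a term in a fit of all 12 libraries, 7 and 6 of the 10 were called in Ab_IR and L_IR against IR, where the calls over all genes rose from 914 to 1960 (16.2%) and from 756 to 1554 (12.8%). Il1b was among them at 1.63 and 1.67, while Cxcl2 in Ab_IR (0.68) and Ccl3 in L_IR (0.98) were under the fold threshold. In that fit Ab_IR and L_IR are set against Ctrl replicate 1 alone, so only effect sizes are given for their differences from Ctrl. In Ab_IR these included 1.07 for Il1b, 1.17 for Ccl4, 0.69 for Ccl6, 0.36 for Ccl9 and 0.18 for Ccl3. In L_IR they included 1.12 for Il1b, 0.6 for Ccl4, -0.31 for Cxcl2 and -0.3 for Ccl3.

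The chemokine list was widened to 37 names, of which 33 were in the tables and 16 of those were under 1 FPKM in all libraries. In IR against Ctrl, 13 were tested and 6 called, all lower, where 7.6% of all genes were called. In Ab_IR against IR 10 of 16 were called, against 7.57% of all genes, and in L_IR against IR 9 of 17, against 6.22%, all higher. Chemokines of the 10 already given account for 3, 5 and 3 of these calls. Some chemokines passed the filter (1 FPKM in 3 or more of the compared libraries) through a single group, no library of the other reaching 1 FPKM, so that their direction was fixed by the filter. Of the calls these were Cxcl12 in all 3 comparisons, Ccl7 in both comparisons of Ab_IR and L_IR with IR, and Cxcl9 in L_IR against IR, and without such genes 5 of 12, 8 of 12 and 6 of 11 were called. In Ab_IR against L_IR 0 of 16 were called by limma, and 7 passed the adjusted p as higher and 4 as lower, where 38% of all genes passed.

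Ccl5 (RANTES, a ligand of Ccr1) lies next to Ccl9 at a gap of 42400 bases and had another order of group levels. It was listed at 9.05 to 20.4 FPKM in Ctrl, 11.1 to 17.0 in IR, 31.5 to 39.9 in Ab_IR and 55.6 to 56.9 in L_IR. Ctrl and IR overlapped (0.06, adjusted p = 0.88), and Ccl5 rose by 1.24 in Ab_IR (adjusted p = 0.000236) and by 1.92 in L_IR (adjusted p = 1.81e-05, limma) against IR. It was lower in Ab_IR than in L_IR by 0.68 (adjusted p = 0.000939, limma), where Ccl3, Ccl4 and Ccl6 were higher.

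Pf4 and Ppbp are platelet chemokines. Ppbp was listed at 10.1 to 15.3 FPKM in Ctrl, 1.7 to 1.84 in IR, 63.9 to 67.5 in Ab_IR and 32.5 to 37.7 in L_IR, and Pf4 at 18.6 to 27.1, 3.41 to 4.89, 36.5 to 39.0 and 23.3 to 29.1. Both were called in the first 3 comparisons, Ppbp at -2.36, 4.61 and 3.71 and Pf4 at -2.23, 2.91 and 2.37. They belong to the list of 8 platelet and megakaryocyte markers used below, which summed to 13.68 to 15.91 FPKM in IR, 61.14 to 74.27 in Ctrl, 145.6 to 148.4 in Ab_IR and 89.85 to 96.15 in L_IR.

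Receptors of these chemokines moved in both directions. Of 23 listed, 11 to 13 were tested, and 3 were called higher and 2 lower in IR against Ctrl, 5 higher and 3 lower in Ab_IR against IR, and 2 each way in L_IR against IR, where 7.6%, 7.57% and 6.22% of all genes were called. In each of the 3 comparisons Cx3cr1 and Ackr1 were among the calls and had no IR library at 1 FPKM, and without genes that passed the filter through a single group 3 of 8, 6 of 9 and 2 of 9 were called. Cxcr2, the receptor of Cxcl2, was listed at 17.4 to 18.9 FPKM in IR and at 4.33 to 5.48 in Ctrl, 3.35 to 3.53 in Ab_IR and 1.83 to 2.07 in L_IR. It rose by 1.68 in IR against Ctrl (adjusted p = 5.03e-05) and fell by 2.1 in Ab_IR and by 2.69 in L_IR against IR (adjusted p = 8.87e-08 and 5.87e-08, limma). Its ligand Cxcl2 ran the other way in these comparisons, which share the IR libraries.

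Ccr1, the receptor shared by Ccl3, Ccl5, Ccl6 and Ccl9, was listed at 16.2 to 17.5 FPKM in IR, 5.61 to 7.87 in Ctrl, 6.11 to 7.68 in Ab_IR and 3.44 to 4.27 in L_IR. It rose by 1.23 in IR against Ctrl (adjusted p = 0.000408) and fell by 1.21 in Ab_IR and 1.91 in L_IR against IR (adjusted p = 9.23e-06 and 1e-06, limma). Ccr2, the receptor of monocyte chemoattractants, averaged 13.3 to 19.6 FPKM over the groups and was not called. Cxcr4, the receptor that holds stem cells in the marrow, and Ccrl2, a non-signaling chemerin receptor, were called higher in Ab_IR against IR, at 1.01 and 1.05.

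Il1r2 encodes the decoy receptor that binds interleukin-1 without signaling. It was listed at 2.53 to 3.5 FPKM in Ctrl, 41.5 to 43.6 in IR, 2.27 to 2.63 in Ab_IR and 1.49 to 1.6 in L_IR, IR being far above the others. It rose by 3.49 in IR against Ctrl (adjusted p = 7.26e-06) and fell by 3.67 in Ab_IR and by 4.1 in L_IR against IR (adjusted p = 1.68e-08 and 3.09e-09, limma). The inhibitors of interleukin-1 had different orders of groups, Il1r2 being highest in IR and Il1rn highest in Ab_IR and L_IR.

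Of the 10 listed receptors and binding proteins for interleukin-1 and TNF, 1 was called higher and 1 lower in IR against Ctrl and in Ab_IR against IR, and 1 lower in L_IR against IR, where 7.6%, 7.57% and 6.22% of all genes were called. The signaling receptor Il1r1 averaged 1.2 to 2.2 FPKM and its partner Il1rap 1.9 to 3.7. Tnfrsf1a, the main TNF receptor, averaged 55 FPKM in IR and 35.5 to 39.7 in the other groups, and Tnfrsf1b averaged 18.5 to 23.5. None of these was called. Il1a, the other agonist, was listed at 0 to 1.24 FPKM and was not tested, and Il18, a further caspase-1 substrate, averaged 1 to 1.89 FPKM.

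**Figure D3:**
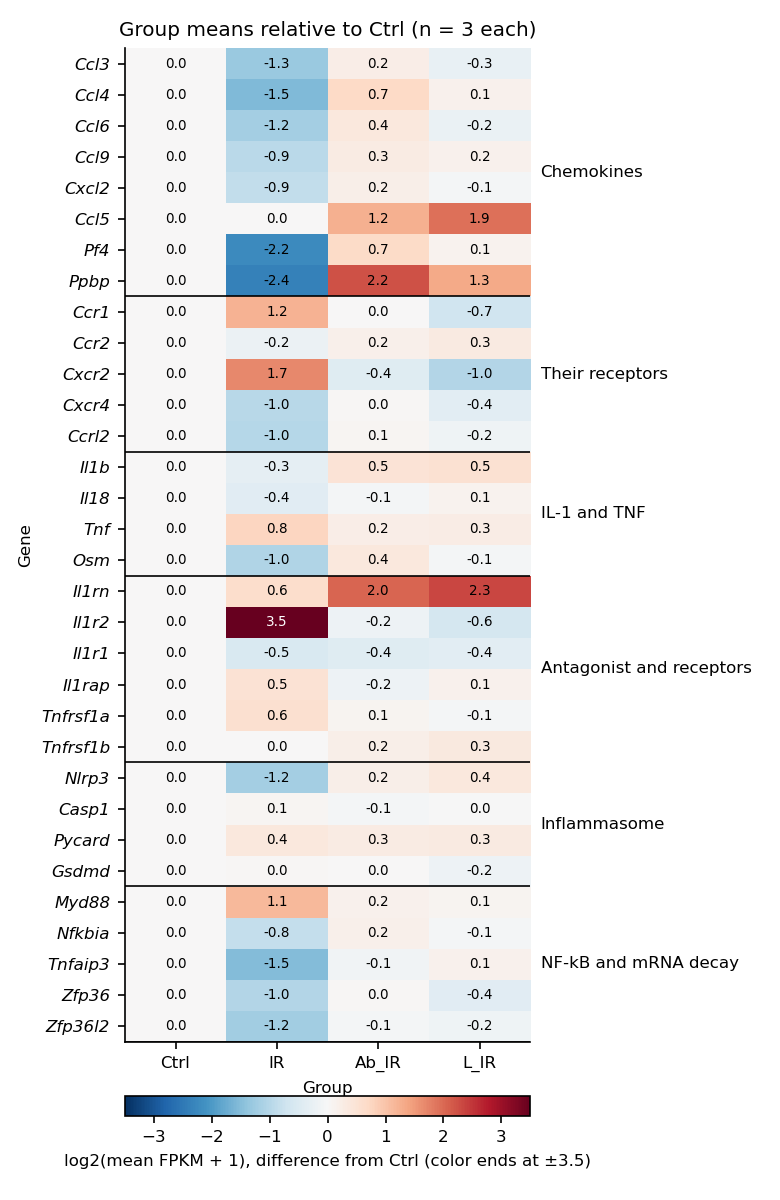
Group means of 32 genes as log2(mean FPKM + 1), less the Ctrl mean (columns are the 4 groups, n = 3 each; rows are genes by role; red is higher and blue lower than Ctrl, with the value printed in each cell). The IR column is blue for most chemokines and for Nlrp3, Tnfaip3 and Zfp36, and red for Ccr1, Cxcr2, Tnf, Il1r2 and Myd88.

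Of 24 listed inflammasome and pyroptosis genes, 19 were tested, and Nlrp3, which is among the 10, was the only one called in IR against Ctrl and in L_IR against IR, where 7.6% and 6.22% of all genes were called. In Ab_IR against IR, where 7.57% of all genes were called, Casp4 was called as well, lower by 1.02 (adjusted p = 4.43e-06, limma). The median over the list was -0.02, 0 and -0.05 in these comparisons. Pycard, the adaptor between Nlrp3 and caspase-1, averaged 6.67 FPKM in Ctrl and 8.43 to 8.83 in the other groups (0.42 in IR against Ctrl, adjusted p = 0.228), and Gsdmd, the pore-forming substrate, averaged 24.5 to 28.3.

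Of 32 NF-κB genes tested, 2 were called higher and 1 lower in IR against Ctrl, 2 higher and 1 lower in Ab_IR against IR, and 1 higher and 2 lower in L_IR against IR, that is 3 of 32 each time, where 7.6%, 7.57% and 6.22% of all genes were called. Tnfaip3 (A20), a feedback inhibitor of NF-κB, was listed at 34.8 to 43.2 FPKM in Ctrl, 12.6 to 13.6 in IR, 34.2 to 37.3 in Ab_IR and 41.4 to 44.2 in L_IR, with IR apart from all others, and it was called at -1.5, 1.39 and 1.65. Nfkbia (IκB alpha) was listed at 62.8 to 63.6 FPKM in IR and at 106 to 132 in the other groups. It fell by 0.83 in IR against Ctrl (adjusted p = 9.79e-05, limma), under the fold threshold. In Ab_IR against IR it was called higher, just past that threshold (adjusted p = 8.53e-07, limma), and in L_IR against IR it was not called, at 0.77. The related genes Nfkbib, Nfkbid, Nfkbie, Nfkbiz, Tnip1 and Tnip2 of the same list were not called in any comparison. Myd88, the adaptor of interleukin-1 and Toll-like receptors, ran the other way, at 51.7 to 55.2 FPKM in IR and 22.3 to 27.5 elsewhere, and was called higher in IR against Ctrl at 1.14. Bcl3, an atypical IκB protein, was the other gene called higher there, at 1.33.

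Zfp36 (tristetraprolin) and Zfp36l2 bind AU-rich elements and speed the decay of cytokine mRNAs such as that of Tnf. Zfp36 was listed at 215 to 248 FPKM in Ctrl, 110 to 117 in IR, 223 to 250.3 in Ab_IR and 169.6 to 179 in L_IR, IR being the lowest group. It was called at -1.02 in IR against Ctrl and 1.06 in Ab_IR against IR, and Zfp36l2 was called at -1.2, 1.12 and 1.04 in the first 3 comparisons. Of 9 decay genes tested, these 2 were the only ones called in IR against Ctrl, where 7.6% of all genes were called, and in Ab_IR against IR, where 7.57% were. Osm (oncostatin M), an interleukin-6 family cytokine, was listed at 21.1 to 22.4 FPKM in IR and at 41.4 to 63.1 in the other groups and was called at -1.04 in IR against Ctrl and 1.41 in Ab_IR against IR.

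Markers of several cell types moved with the same groups. In IR the 16 neutrophil markers summed to 14870 to 15160 FPKM, above Ctrl (9482 to 11450), Ab_IR (10920 to 11460) and L_IR (7637 to 7835), and 7 of 16 were called higher and 1 lower in IR against Ctrl, where 7.6% of all genes were called and 4.57% were called lower. Cxcr2 and Il1r2 are on that list. The 9 eosinophil markers summed to 398.5 to 410.3 in IR, 4731 to 6279 in Ctrl, 6797 to 6927 in Ab_IR and 2887 to 2916 in L_IR, with 8 of 9 called lower in IR against Ctrl, of which Il5ra had no IR library at 1 FPKM. The 8 mast cell and basophil markers summed to 228.2 to 235.5 in IR, 624.4 to 704.8 in Ctrl, 819.7 to 871.3 in Ab_IR and 517.3 to 540.6 in L_IR, with 6 of 8 called lower.

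Monocyte and macrophage markers summed to 572.4 to 578.3 FPKM in IR, 687.7 to 763.3 in Ctrl, 696 to 746.6 in Ab_IR and 526.4 to 554.5 in L_IR, and 1 of 15 tested was called higher and 5 lower in IR against Ctrl, where 7.6% of all genes were called. Of those 5, Cx3cr1 had no IR library at 1 FPKM. The 9 dendritic cell markers summed to 39.1 to 45.27 in IR and to 83.1 to 96.15 in the other groups. No list of these myeloid cells had a gene at 0 in all libraries. The part of cell composition in the differences of the 10 genes was not tested.

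**Figure D4:**
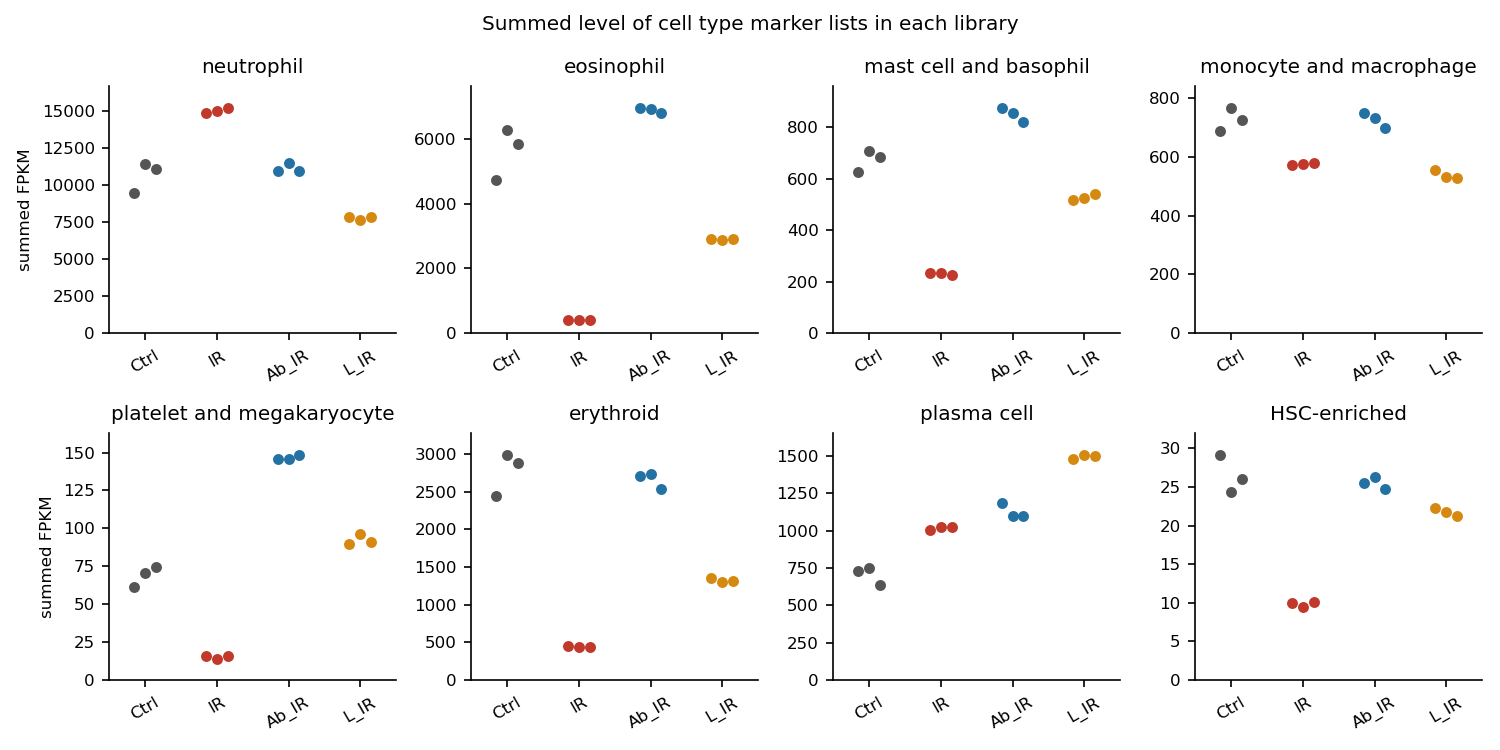
Summed FPKM (vertical axes from 0) of 8 lists of cell type markers in the 12 libraries, points being libraries by group in replicate order. The IR libraries are highest for the neutrophil list and lowest for the eosinophil, mast cell and basophil, platelet and megakaryocyte, erythroid and HSC-enriched lists.

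Genes whose pattern over the 12 libraries was most like that of each of the 10 were sought among 4546 genes averaging 10 FPKM or more, without immunoglobulin genes, predicted or RIKEN gene names and repeated symbols, by the root mean square difference of log2 values centered on each gene's mean. The libraries share their groups and their scaling, so this is a description. Nfkbia was nearest to Cxcl2 (0.0973), followed by Sh3glb1 (0.113) and Lbh (0.117). Nearest to Nlrp3 were Csf1r (0.125), Itgb7 (0.128) and Cd7 (0.152), and nearest to Ccl6 were Ptms (0.0963), Osm (0.108) and Cirbp (0.113). For Il1rn, Ccl5 (0.367), Hmox1 (0.552) and Apoe (0.568) were nearest, at distances larger than those of the other genes. The single nearest genes were Anxa5 for Ccl3 (0.089), Tubb2a for Ccl9 (0.0852), Cox6b2 for Ccl4 (0.183), Ostc for Tnf (0.101) and Zfas1 for Il1b (0.18).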

How the data were processed

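RNA-seq of 12 libraries (3 per group, grouped by their titles) was used. Stranded mRNA libraries were made per the labels. In the methods, fastp is given for trimming, RSEM for quantification and DESeq2 for testing, whereas the submitters' processing notes name fastp, HISAT2, StringTie, GRCm38 and mm10, without versions. The deposited values carry no unit in their headers and were read as FPKM, as the authors computed them, from their library sums. No counts or depths are given, so no counting intervals can be had and the authors' count test was not applied. Files of Ab_IR drop trailing zeros.

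limma 3.58.1 in R 4.3.3 (lmFit, then eBayes with a mean trend, two-sided) modelled log2(FPKM + 1) in each pair of groups, on genes that reached 1 FPKM in 3 or more of the fitted libraries. All 10 genes passed this filter in each of 6 comparisons. Intervals are 95% and per gene. Sequences and positions came from RefSeq (GRCm38.p6) and GENCODE M21, and figures from matplotlib 3.10.9. The script was checked on simulated data.

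The 10 genes, the pathway and marker lists and the tests were chosen with earlier results of these data known. Named besides the 10 were pathway genes called in any of the first 4 comparisons with a mean of at least 10 FPKM, plus Pycard, Gsdmd, Il1r1, Il1r2, Il1rap, Tnfrsf1a, Tnfrsf1b, Ccr1, Ccr2, Cxcr2, Il18, Il1a and Zfp36. A few genes of these rules are not reported here. Casp4, Bcl3 and the genes in the closing section were named after their values were seen. Alternatives were a pseudocount of 0.1, no filter, only genes averaging 10 FPKM or more, quantile normalization, median log2 ratio scaling, rescaling without immunoglobulin genes, no trend, all 12 libraries in the fit, a term for libraries with Nppa above 10 FPKM, a block on replicate number, and the omission of each library in turn.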

Additional observations from a re-analysis of the deposited data

How the results depend on the processing

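Of 936 recomputed log2 fold changes (10 genes, 6 comparisons), 903 kept direction and side of the threshold, 8 became called, 4 lost the call and 21 changed sign, none of the last having been called. The number of the 10 genes called moved by more than 1.5 times as follows. With a mean of at least 10 FPKM, which leaves 6 of the 10, it was 3 in L_IR against IR and 0 in Ab_IR and in L_IR against Ctrl. It also moved with the Nppa term in Ab_IR and in L_IR against Ctrl, where Il1b reached 1.07 and 1.12 and Ccl4 in Ab_IR 1.17. There the term leaves Ctrl replicate 1 as the only control, so no counts are given. Leaving out each library gave 4 to 4 in IR against Ctrl, 7 to 7 in Ab_IR and 5 to 5 in L_IR against IR, 0 to 0 in Ab_IR against L_IR and 1 to 1 in both against Ctrl. In the same order, those fits called 888 to 955, 904 to 943, 751 to 764, 60 to 75, 60 to 123 and 269 to 347 of all genes. Calls lost were Cxcl2 in Ab_IR against IR (0.92 without immunoglobulin genes, 0.68 with the Nppa term) and Ccl3 in L_IR against IR (0.98 with median scaling and with the Nppa term).

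Signs changed, between values near 0, for Casp1 in IR against Ctrl without Ctrl replicate 3 (leave-one-out range -0.07 to 0.16). In Ab_IR against L_IR they changed for Ccl9 without immunoglobulin genes (0), for Il1b (0.06), Tnf (0.07) and Casp1 (0.01) without Ab_IR replicate 3, for Tnf without L_IR replicate 2 (0.03) and for Il1b without L_IR replicate 3 (0.08), with leave-one-out ranges of -0.13 to 0.08, -0.11 to 0.07 and -0.16 to 0.01. In Ab_IR against Ctrl they changed for Ccl3 with quantile normalization (-0.02), Cxcl2 with the Nppa term (-0.05), and Casp1 without Ctrl replicate 1, Ctrl replicate 2 or Ab_IR replicate 3 (0.01 each, from -0.22). In L_IR against Ctrl they changed for Casp1 (0.01) with quantile normalization, Cxcl2 (0.02) and Casp1 (0.07) without immunoglobulin genes, Ccl6 (0.08) with the Nppa term, Cxcl2 (0.08), Ccl4 (-0.05) and Casp1 (0.08) without Ctrl replicate 1, and Casp1 without Ctrl replicate 2 (0.07) or L_IR replicate 1 (0.05), the lowest and highest leave-one-out values being -0.13 and 0.08, -0.05 and 0.31, and -0.16 and 0.08.

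With the replicate number as a block the 10 genes gave 4, 7, 5, 0, 1 and 1 calls, as without it, and all genes 928, 914, 756, 66, 92 and 294 against 918, 914, 756, 65, 112 and 325. Same-numbered libraries correlated at -0.269 to 0.208 in their deviations over 12699 genes. With deviations from means of 3 libraries, this cannot show whether the numbers pair the libraries. Apart from leaving out libraries, calls over all genes ran from 405 to 1365, 367 to 1960, 302 to 1554 and 42 to 165 in the first 4 comparisons. The lowest came with the mean of at least 10 FPKM. The highest came with a pseudocount of 0.1 (IR against Ctrl, Ab_IR against L_IR) or the Nppa term. In Ab_IR and L_IR against Ctrl the lowest were 70 and 206, under the same limit on the mean. Without Ab_IR replicate 1, 2 and 3, calls over all genes in Ab_IR against Ctrl fell from 112 to 65, 60 and 63. Depth is unknown, so the counting error of genes near 1 FPKM, such as Il1b throughout and Il1rn in Ctrl and IR, cannot be given.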

Other observations

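Other inflammatory genes of the pathway lists, named after their values were seen, showed patterns besides those of the 10. Il6, a further NF-κB target cytokine, was listed at 4.34 to 6.92 FPKM in Ctrl, 0.86 to 1.12 in IR, 5.63 to 6.27 in Ab_IR and 4.6 to 5.33 in L_IR, and was called at -1.76, 1.78 and 1.58 in IR against Ctrl, Ab_IR against IR and L_IR against IR (adjusted p = 0.000396, 9.23e-07 and 2.92e-06, limma). Cxcl12, the ligand of Cxcr4, was listed at 3.78 to 4.1 FPKM in Ctrl, 0.35 to 0.39 in IR, 2.37 to 2.78 in Ab_IR and 1.91 to 2.11 in L_IR, with IR apart from the others. Il1f9, the gene of interleukin-36 gamma, ran the other way, at 22.0 to 26.04 FPKM in IR and 1.54 to 3.9 elsewhere.

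Some chemokines were highest in the L_IR libraries. Ccl7 was listed at 0 to 0.52 FPKM in Ctrl, 0.06 to 0.97 in IR, 1.54 to 2.36 in Ab_IR and 2.56 to 4.43 in L_IR. Ccl12 was listed at 0 in all Ctrl libraries, at 0.27 to 0.71 in IR, 1.0 to 1.2 in Ab_IR and 1.71 to 2.19 in L_IR. For both, every L_IR library was above every other library. Cxcl10, which is induced by interferon, was listed at 2.65 to 6.25 FPKM in Ctrl, 5.02 to 7.23 in IR, 6.56 to 11.7 in Ab_IR and 11.5 to 14.5 in L_IR, where Ab_IR and L_IR overlapped. In L_IR against Ctrl, Ccl5, Ccl7, Ccl12, Cxcl10 and Ppbp were called higher, 5 of 16 chemokines tested, against 2.03% of all genes. In Ab_IR against Ctrl Ccl7, Ccl12 and Ppbp were called higher, 3 of 16, against 0.692% of all genes. No Ctrl library reached 1 FPKM for Ccl7 or Ccl12, which passed the filter through the other group alone and could come out only as higher. Without the chemokines that passed in this way, 3 of 13 were called in L_IR and 1 of 14 in Ab_IR against Ctrl.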
